A study of Mus musculus with 4 samples.

Results

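The CXC chemokines that draw lymphocytes, and the receptors they act on, were followed through every deposited cell type of mouse sarcomas. The set was chosen by gene symbol and holds 9 genes of the 18220 in either deposited table: 5 ligands (Cxcl9, Cxcl10, Cxcl12, Cxcl13 and Cxcl16) and 4 receptors (Cxcr3, Cxcr4, Cxcr5 and Cxcr6). All 9 were present in both the malignant and the non-malignant table. The tumors were hind limb sarcomas of an allograft model with the genotype KrasLSL-G12D/+;Trp53flox/flox on a 129/SvJae background. Hosts received vehicle (PBS) or digoxin, a cardiac glycoside that inhibits the sodium-potassium pump, at 2 mg/kg (prepared in DMSO, diluted in PBS). Injections were intraperitoneal and given every 24 h, and the tumors were taken after dose 4. Each group held 2 mice, genotype and strain were shared by both groups, and the ages of the mice are not given in the sources used here. Whole dissociated tumors were profiled by droplet sequencing of transcript 3′ ends (10x Chromium, version 3 chemistry), which counts RNA molecules by unique molecular identifiers (UMIs). The extraction text also mentions plating for culture, so time in a dish before capture cannot be told from the labels.

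Chemokines are small secreted proteins that bind G protein-coupled receptors on leukocytes and steer them along a gradient. Cxcl9 and Cxcl10 are induced by interferon-gamma and act on Cxcr3, the receptor of activated T and NK cells. Cxcl12 acts on Cxcr4, which is carried by most leukocytes, and it holds cells in stromal niches. Cxcl13 acts on Cxcr5 and organises B cell follicles. Cxcl16 is made as a membrane-bound protein, is shed by proteases and acts on Cxcr6 of effector and resident T cells.

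Levels are given as CPM, a count of UMIs scaled to 1000000 per cell, averaged over the cells of a mouse. The 4 values of a gene always follow the order vehicle replicate 1, vehicle replicate 2, digoxin replicate 1 and digoxin replicate 2. Malignant cells numbered 3976 to 6269 per mouse with a median depth of 46799 to 57658 UMIs, and non-malignant cells 3014 to 3344 with 15837 to 16671 UMIs. Differences of a type against another type are descriptions, because the deposited types were themselves built from expression.

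Before the results, 3 features of the libraries bear on them. Vehicle replicate 2 stood apart by sex: in non-malignant cells the level of Xist was 722, 6.09, 817 and 788 CPM and that of the Y-linked gene Ddx3y was 1.77, 86, 1.72 and 2.14 CPM. Malignant cells of all 4 mice carried Ddx3y, at 48.1, 49.1, 49.3 and 43.1 CPM. Host sex therefore differs within the vehicle group and cannot be told apart from vehicle replicate 2 itself. Both digoxin mice were like vehicle replicate 1, so sex was also unbalanced between the groups. Its part in the differences between digoxin and vehicle was not tested. Each pair of libraries shared 14 to 25 cell barcodes.

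Some deposited names went against their markers. Cells deposited as Epithelial carried summed endothelial markers (Cdh5, Pecam1, Kdr, Tie1 and Cldn5) at 2999.7 to 3702 CPM and epithelial markers (Epcam, Krt8, Krt18 and Cdh1) at 7.17 to 19.3 CPM. The same cluster carried pericyte markers at 607 to 924 CPM and mast cell markers at 59.4, 151, 2391 and 2395 CPM, far higher in both digoxin mice. Cells deposited as Microglia carried plasmacytoid dendritic markers (Siglech, Bst2, Ccr9 and Tcf4) at 7704 to 8623 CPM, whereas the microglial markers in the table summed to 56.9 to 99.8 CPM. The names are kept here only as cluster names. T cells carried summed T cell markers at 3762 to 4517 CPM, and fibroblasts, macrophages and osteoclasts carried the markers of their names. Cells deposited as neutrophils carried neutrophil markers at 29456, 6881, 121043 and 24433 CPM and macrophage markers at 13961, 13135, 11937 and 17184 CPM, the higher of the sums in vehicle replicate 2. Most of this macrophage sum was the single gene Lyz2, which averaged 11374 CPM over the mice, while Adgre1 averaged 142 CPM. The sum alone therefore does not go against the name. Cells deposited as B cells carried B cell markers at 1229 to 2869.9 CPM, plasma cell markers at 6118 to 31618 CPM and macrophage markers at 1545, 9018, 2652 and 1578 CPM, highest in vehicle replicate 2. The sub-cluster of T cells deposited as Unknown, 7 to 11 cells per mouse, carried T cell markers at 0, 0, 0 and 53.3 CPM and dendritic markers at 487 to 856 CPM.

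Cxcl9 and Cxcl10 lie next to each other on mouse chromosome 5 (GRCm38), both on the minus strand. Cxcl9 spans chr5:92321347-92328079 and Cxcl10 spans chr5:92346638-92348889, with 18558 bases between them. Their promoter windows, from 250 bases before to 50 bases after the RefSeq start site on build GRCm38.p6, are shown because both genes are interferon targets that were often detected in the same cells. The windows are chr5:92328030-92328329 and chr5:92348840-92349139, minus strand, and capitals mark matches to an interferon-stimulated response element (ISRE, GAAA, any 2 bases, GAAA) or a kappaB site.
Cxcl9: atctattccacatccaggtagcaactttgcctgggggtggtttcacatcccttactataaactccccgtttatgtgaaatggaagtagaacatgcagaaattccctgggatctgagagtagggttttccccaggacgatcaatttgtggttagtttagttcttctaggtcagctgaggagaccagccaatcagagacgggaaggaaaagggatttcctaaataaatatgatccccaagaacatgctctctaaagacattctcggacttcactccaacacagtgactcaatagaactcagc
Cxcl10: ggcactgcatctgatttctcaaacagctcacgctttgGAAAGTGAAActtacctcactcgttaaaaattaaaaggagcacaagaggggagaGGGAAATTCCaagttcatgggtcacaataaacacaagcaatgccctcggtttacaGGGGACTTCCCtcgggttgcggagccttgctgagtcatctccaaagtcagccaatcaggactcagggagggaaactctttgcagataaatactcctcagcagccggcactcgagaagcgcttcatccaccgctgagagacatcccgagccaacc

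The Cxcl10 window held an ISRE match from position -213 relative to the start site and 3 kappaB matches, from -159, -104 and -103, of which the last pair overlap. The Cxcl9 window held no match to the ISRE, to the kappaB site or to the interferon-gamma-activated site TTCNNNGAA, and it held TATAAA at -195. Both strands were searched. Of 32851 RefSeq promoter windows of the same length, 3.44% held the ISRE, 8.46% the kappaB site, 8.30% the interferon-gamma-activated site and 13.6% TATAAA. A match is a description of the letters and not a shown binding site. Likewise, a missing match to these fixed patterns does not show that a site is absent. RefSeq windows were at hand for 7 of the 9 genes (Cxcl9, Cxcl10, Cxcl12, Cxcl13, Cxcr3, Cxcr4 and Cxcr6). The Cxcl13 window held TATAAA at -46, and the Cxcr4 window held it at -30, with the reverse-strand match TTTATA at -32. Those of Cxcl12, Cxcr3 and Cxcr6 held none of the 4 motifs.

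Cxcl9, an interferon-gamma-induced ligand of Cxcr3, was highest in fibroblasts and varied widely between mice. Fibroblast levels were 1269.5, 90.3, 1227 and 807 CPM. Vehicle replicate 2 was far below the other 3 mice, so the groups overlapped. A single fibroblast held 27.3%, 59.4%, 62.9% and 26.2% of the Cxcl9 UMIs of the 4 mice. Next came the Epithelial cluster at 227 ± 218 CPM (SD, n = 4), macrophages at 213 ± 105 and dendritic cells at 208 ± 203. These 3 did not differ beyond their spread. In dendritic cells, 10 to 18 per mouse in the 3 mice with most UMIs, a single cell held 81.8% to 96.8% of a mouse's Cxcl9 UMIs, and in the Epithelial cluster of vehicle replicate 1 a single cell held 61.3%. By level, B cells were lowest at 2.01 ± 3.24 CPM. In malignant cells the levels were 67.2, 19.4, 38 and 46.5 CPM. Of all Cxcl9 UMIs of a tumor, malignant cells held 38.3% to 63%, macrophages 33% to 54% and fibroblasts only 0.818% to 11.6%. Such shares depend on cell recovery and depth as well as on expression. Vehicle replicate 2 was the lowest mouse for Cxcl9 in 11 of the 12 populations with enough cells for a test, and vehicle replicate 1 was the highest in 9 of them.

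Within macrophages, Cxcl9 was highest in the sub-cluster deposited as M1. Its levels there were 516, 194, 371 and 473 CPM, against 140.2, 17.8, 74.3 and 73.4 CPM in M2 and 184, 20.2, 76.4 and 118 CPM in Highly proliferative M2. The M1 level was above both other sub-clusters in each of the 4 mice, and in all 3 sub-clusters vehicle replicate 2 was lowest. M1 cells made up 45.3%, 29.0%, 47.6% and 42.5% of macrophages in the 4 mice and M2 cells 39.2%, 61.5%, 41.3% and 43.5%. Vehicle replicate 2 thus had both the smallest M1 share and the lowest level within M1.

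Cxcl9 came from few cells. With each cell thinned to 3000 UMIs, so that depth is equal, a Cxcl9 UMI was found in 14.7% (95% interval 13.7% to 15.8%) of M1 cells, 21.7% of fibroblasts and 3.26% of malignant cells. At full depth the shares were 21.2%, 35% and 14.2%. In NK cells, taken as a type that should lack Cxcl9, the thinned share was 0.992% at a median depth of 11690.5 UMIs, against 52867 in malignant cells and 13879.5 in M1. The top 1% of malignant cells (190 cells) held 74% of the Cxcl9 UMIs of that compartment, and the top 1% of M1 cells held 33.2%.

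Malignant cells with a thinned Cxcl9 UMI (618 cells) also carried more macrophage marker UMIs than the rest, 3.56 against 1.32 per 3000 UMIs. Scrublet, a doublet caller, marked 15.0% of them and 6.57% of the rest. The part that droplets with RNA of a macrophage take in the malignant Cxcl9 level was not tested.

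Cxcl10, also an interferon-induced ligand of Cxcr3, was spread more evenly over types. Mean levels were 356 ± 251 CPM (SD, n = 4) in fibroblasts, 273 ± 262 in neutrophils, 272 ± 94.7 in macrophages and 259.9 ± 91.1 in NK cells. T cells at 222 ± 77.4 and malignant cells at 199 ± 44.7 followed. Each type overlapped its neighbour in the order over the 4 mice, down to osteoclasts at 10.3 ± 5.57 CPM. Fibroblasts did not lead in every mouse: their values were 541, 86, 200 and 595 CPM, with vehicle replicate 2 lowest. A single fibroblast held 28.2%, 29.6%, 50.6% and 43% of the Cxcl10 UMIs of the 4 mice. In malignant cells the values were 231, 175, 147 and 241 CPM, where digoxin replicate 1 was lowest, digoxin replicate 2 highest and the groups overlapped.

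Among macrophages the Cxcl10 level was again highest in M1, at 728, 474, 354 and 613 CPM. It was 207, 249, 143 and 184 CPM in Highly proliferative M2 and 67.2, 38.8, 52.8 and 52.9 CPM in M2, in that order in every mouse. Malignant cells, the most numerous, held 75.5% to 86.1% of all Cxcl10 UMIs of a tumor, and macrophages 12.5% to 21.6%. These shares follow cell recovery and depth as well as expression.

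The Cxcr3 ligands were found in the same cells more often than in the others of their type. Among malignant cells thinned to 3000 UMIs, Cxcl10 was detected in 44.2% against 14.7% of cells with and without a Cxcl9 UMI. The corresponding shares were 41.9% against 15.1% in M1 cells, 14.9% against 8.21% in M2 cells and 47.7% against 12.6% in fibroblasts. The order held in each of the 4 mice in M1 and M2 cells, but in fibroblasts of vehicle replicate 2 none of the 2 cells with Cxcl9 had Cxcl10. In malignant cells it also held in each mouse, with 36.4% to 48.3% against 12.9% to 16.8%. The malignant cells with Cxcl9 were the same 618 that carried more macrophage marker UMIs and more doublet marks than the rest. The part of droplets with macrophage RNA in their shared detection was not tested.

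**Figure D1:**
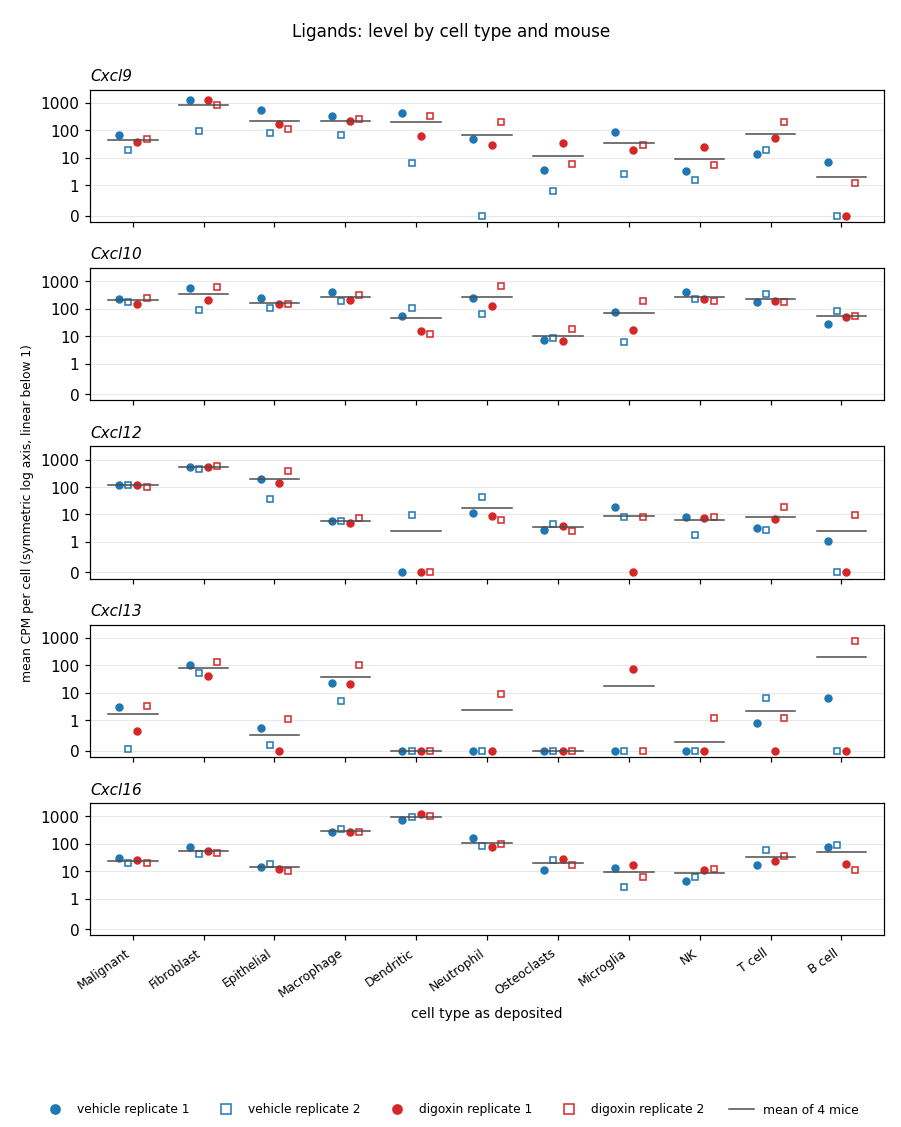
Mean CPM per cell of the 5 ligands (symmetric log axis, linear below 1) in 11 deposited cell types, with a point per mouse and a bar at the mean of the 4 mice. Cxcl9 and Cxcl12 are highest in fibroblasts and Cxcl16 in dendritic cells, and the open blue squares of vehicle replicate 2 lie lowest for Cxcl9 in every type but T cells (tied at 0 in B cells). The high B cell point of Cxcl13 comes from 1 cell.

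Cxcl12, the ligand of Cxcr4 and a product of stromal cells, varied little between mice in fibroblasts and malignant cells, but widely in some other types. Fibroblasts had 538, 452, 542 and 595 CPM, above every other type in each of the 4 mice. In vehicle replicate 2, however, a single fibroblast held 56.8% of the Cxcl12 UMIs, against 12.7% to 15.1% in the other mice. The Epithelial cluster had 204, 35.8, 138 and 376 CPM, with vehicle replicate 2 lowest and digoxin replicate 2 highest. Malignant cells had 119.6, 116, 121 and 103 CPM, with a smaller ratio of highest to lowest mouse than any other ligand in these cells. All 8 remaining types averaged at most 17.4 CPM, the level in neutrophils.

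Cxcl12 was present in most malignant cells and fibroblasts at full depth. A UMI was found in 85.3% of malignant cells and 90.6% of fibroblasts, and after thinning in 24.8% (95% interval 24.2% to 25.4%) and 50.2%. Macrophages gave 8.97% at full depth and 1.74% thinned. The top 1% of malignant cells held 7.56% of its UMIs, against 41.7% for Cxcl10 and 74% for Cxcl9. Malignant cells held 93% to 97.7% of all Cxcl12 UMIs of a tumor.

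Cxcl13, the follicle chemokine that binds Cxcr5, was rare and uneven. Macrophages had 23.1, 4.97, 21.3 and 107 CPM, and fibroblasts 104, 53.7, 41.4 and 128 CPM. In macrophages digoxin replicate 2 was highest, vehicle replicate 2 lowest and the groups overlapped. The level in M1 was 13.8, 0, 3.8 and 34.9 CPM, in M2 34.3, 7.98, 25 and 125 CPM and in Highly proliferative M2 22, 0.662, 82.3 and 268 CPM. In every mouse the M2 sub-cluster lay above M1, which is the reverse of the order seen for Cxcl9 and Cxcl10.

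Only 345 of 10363 macrophages had a Cxcl13 UMI (3.33%), and the top 1% of them held 90.1% of the UMIs. The highest type mean, 203 CPM in B cells, came from a single cell of digoxin replicate 2 that held 650 of the 651 Cxcl13 UMIs. That cell had 89749 UMIs in all, against a median of 7239 in the B cells of that mouse. It carried 156 UMIs of Cd79a and 90 of Ms4a1, but also 7 of Lyz2, 6 of Cd3e, 5 of C1qa and 3 of Cd3g. It was not marked as a doublet. All 116 UMIs in the cells deposited as Microglia sat in 1 cell of digoxin replicate 1, which also carried 65 C1qa and 42 C1qb UMIs. In malignant cells, the 33 with a thinned Cxcl13 UMI carried 11.6 macrophage marker UMIs against 1.38 in the rest, and 39.4% against 6.79% were marked as doublets. What these droplets contribute to the malignant Cxcl13 level of 0.0727 to 3.38 CPM was not tested.

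Cxcl16, the membrane-bound ligand of Cxcr6, was a myeloid product. Dendritic cells had 765, 921, 1195 and 984 CPM, above every other type in each mouse. Macrophages had 269, 347, 277 and 259.9 CPM and neutrophils 168, 83.5, 78.3 and 97.9 CPM. These 3 levels did not overlap between types, whereas fibroblasts, B cells and T cells overlapped, with means from 53.8 down to 33.9 CPM. Malignant cells had 29.3, 19.4, 25.2 and 20.3 CPM.

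In contrast to Cxcl9, Cxcl16 was present in most macrophages and differed little between the M2 sub-clusters of different mice. It was detected in 95.3% of M2 cells, 93% of Highly proliferative M2 cells and 71.8% of M1 cells, or 57.6%, 44.9% and 43% after thinning. NK cells gave 2.18% thinned. Levels were 294, 349.6, 346 and 311 CPM in M2, 229, 236, 227 and 233 CPM in Highly proliferative M2 and 262, 378, 228 and 217 CPM in M1. In M1 both vehicle mice lay above both digoxin mice. Macrophages held 60.1% to 75.4% of all Cxcl16 UMIs of a tumor and malignant cells 22.6% to 36.7%.

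**Figure D2:**
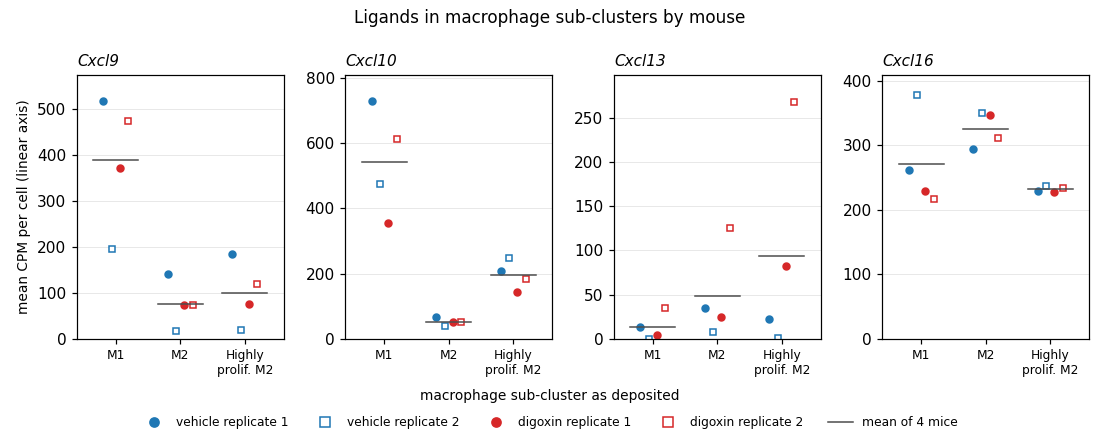
Mean CPM per cell (linear axis from 0) of 4 ligands in the 3 deposited macrophage sub-clusters, with a point per mouse and a bar at the mean of the 4 mice. Cxcl9 and Cxcl10 are highest in M1, Cxcl13 is higher in both M2 sub-clusters than in M1, and Cxcl16 lies between 217 and 378 CPM in all 3.

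Cxcr3, the receptor of Cxcl9 and Cxcl10, marked T cells, the plasmacytoid-marker cells deposited as Microglia, and NK cells. T cells had 123, 191, 121 and 104 CPM and the plasmacytoid-marker cells 84.8, 139.8, 105 and 118 CPM, and these overlapped. NK cells had 59.6, 62.7, 41.9 and 39.7 CPM, below the plasmacytoid-marker cells in each mouse. All other types averaged at most 17.4 CPM, the level in B cells, and macrophages had 1.15 to 2.37 CPM.

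Among the T cell sub-clusters named by the authors, Cxcr3 was found most often in regulatory T cells when the mice were pooled. The levels were 134, 235, 155 and 136 CPM in Treg, 157, 198, 137 and 103 in CD8, 131, 127, 103 and 99.6 in NKT and 100.04, 137, 117 and 95.4 in Th cells. A Cxcr3 UMI was found in 72.6% of Treg cells at full depth and in 42.3% (95% interval 34.9% to 50%) after thinning, against 32.1%, 27.4% and 24% in the other 3. In vehicle replicate 1, however, the thinned shares of Treg and CD8 cells were 42.9% and 43.3%. Malignant cells, which should lack the receptor, gave 0.617% at full depth and 0.0369% thinned. In Treg cells vehicle replicate 2 was highest and the groups overlapped, while in CD8 and NKT cells both vehicle mice lay above both digoxin mice. Some sub-clusters held as few as 8 cells in a mouse, so no test was made within them.

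The makeup of the T cells differed in vehicle replicate 2. Treg cells made up 19.1%, 59.1%, 25.8% and 26.7% of T cells in the 4 mice. Summed macrophage markers in T cells were 839.6, 2819.7, 1566 and 1863 CPM, highest in the same mouse, and 2861, 3984, 3419.8 and 3827 CPM within Treg cells. Most of the sum in Treg cells was Lyz2, which alone averaged 2428 CPM over the mice, while Adgre1 averaged 30 CPM. Treg cells carried T cell markers at 2678, 3464, 2186 and 2690.1 CPM, below the sum of their macrophage markers in each mouse. Th, CD8 and NKT cells carried T cell markers at 4926 to 5414, 4519 to 5301 and 4269 to 5138 CPM. The part of these marker levels and of the makeup in the receptor levels of T cells and their sub-clusters was not tested.

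Cxcr4, the receptor of Cxcl12, was the broadest receptor. Neutrophils had 255, 463, 151 and 124 CPM and B cells 478, 234, 98.5 and 154 CPM. T cells followed with 180.3, 138, 163 and 175 CPM, a tighter range that was above macrophages in each mouse. Macrophages (93.4 to 119 CPM), the plasmacytoid-marker cells (59.2 to 131 CPM) and the Epithelial cluster (47.8 to 113 CPM) overlapped. Malignant cells at 4.29, 4.21, 3.43 and 2.86 CPM and fibroblasts at 2.64, 0.946, 4.85 and 5.81 CPM were lowest. Fibroblasts and malignant cells, both high in the ligand Cxcl12, were thus at the bottom of the order for its receptor, whereas the Epithelial cluster carried both.

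In both neutrophils and B cells the vehicle mice lay above the digoxin mice for Cxcr4, but these types held only 5 to 34 and 4 to 18 cells per mouse and were not tested. The CD8, NKT and Th sub-clusters differed little: 202, 196, 226 and 209.5 CPM in CD8, 208, 212, 182 and 250.0 in NKT and 222, 217, 162 and 202 in Th cells. Treg cells had 90.4, 93.3, 144 and 111 CPM, lower than the other 3 sub-clusters in each mouse. Because macrophages were so many, they held 68.3% to 78.1% of the Cxcr4 UMIs of a tumor and T cells 2.5% to 5.17%.

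Cxcr5, the receptor of Cxcl13, had its highest mean level in B cells, then in dendritic cells. Its level in B cells was 105, 84.2, 95.3 and 37 CPM, from 12, 3, 7 and 8 UMIs. Dendritic cells had 13.6, 25.3, 25.9 and 0 CPM, and T cells had 5, 0, 1 and 1 UMIs in all. Of all Cxcr5 UMIs of a tumor, B cells held 18.8% to 37.5%, dendritic cells 0% to 43.8%, macrophages 18.8% to 34.8% and malignant cells 12.5% to 26.1%, from totals of 16 to 32 UMIs. No Cxcr5 UMI was seen in fibroblasts, neutrophils, osteoclasts, NK cells or the Epithelial cluster. Counting only cells, 15 of 41 B cells had a UMI and 6 of 579 T cells. For the 504 NK cells, the upper limit that 0 cells with a UMI allow is 0.595% at this depth. Of the 41 B cells, 24.4% were marked as doublets, against 0.332% to 0.824% of all non-malignant cells of a mouse. The part of marked cells in the B cell levels of Cxcr5 and Cxcr4 was not tested.

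Cxcr6, the receptor of Cxcl16, was highest in T cells, with NK cells next. T cells had 258, 121, 201 and 107 CPM and NK cells 21.7, 25.2, 30.1 and 20.9 CPM, with no overlap. The remaining types averaged at most 2.46 CPM, and no Cxcr6 UMI was found in fibroblasts, neutrophils or the Epithelial cluster. In T cells vehicle replicate 1 and digoxin replicate 1 were high, and the groups overlapped.

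Within T cells the differences of Cxcr6 between sub-clusters exceeded those of Cxcr3 and Cxcr4. Th cells had 484, 489, 479 and 269 CPM, CD8 cells 302, 208, 153 and 59.2, NKT cells 175, 74.1, 106 and 34.9 and Treg cells 30.3, 23.5, 4.78 and 40. Th was highest in each mouse. A Cxcr6 UMI was found in 55.1% (95% interval 47.2% to 62.8%) of thinned Th cells, in 33.3% of CD8 cells, 19.4% of NKT cells and 3.43% of Treg cells, and in 0.0482% of macrophages, taken as a type that should lack it. Taken by transcript instead of by sub-cluster, T cells with a Cd4 UMI and no Cd8a or Cd8b1 UMI had 431, 173, 364 and 222 CPM. Those with Cd8a or Cd8b1 and no Cd4 had 248, 194, 144 and 56.9 CPM. Treg cells, which also carried the most macrophage markers, had the highest mean for Cxcr3 and the lowest for Cxcr6. In thinned T cells, Cxcr6 was detected in 24.9% against 25.9% of cells with and without Cxcr3. Within sub-clusters the shares were 60% against 53.5% in Th, 40% against 30.2% in CD8, 23.5% against 17.8% in NKT and 2.7% against 3.96% in Treg cells, with no common order over the mice. In NK cells they were 16.9% against 4.56%, an order that was reversed in digoxin replicate 2.

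**Figure D3:**
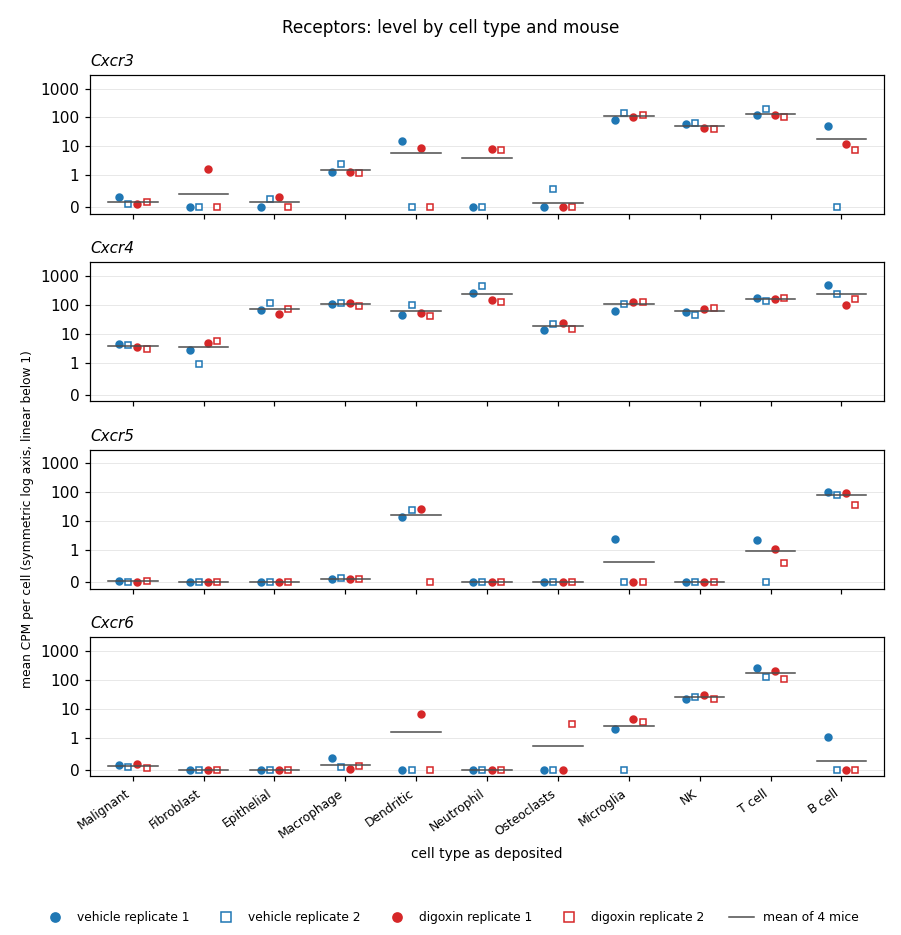
Mean CPM per cell of the 4 receptors (symmetric log axis, linear below 1) in 11 deposited cell types, with a point per mouse and a bar at the mean of the 4 mice. Cxcr4 is present in most leukocyte types, Cxcr5 is highest in B cells and Cxcr6 is highest in T cells, followed by NK cells.

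**Figure D4:**
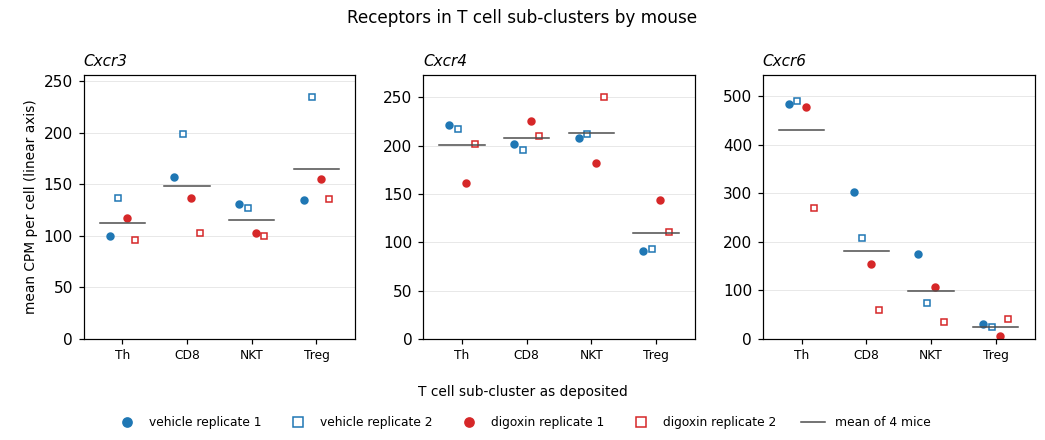
Mean CPM per cell (linear axis from 0) of 3 receptors in 4 deposited T cell sub-clusters, with a point per mouse and a bar at the mean of the 4 mice. The mean level of Cxcr6 falls from Th to Treg cells, although in digoxin replicate 2 Treg cells lie above NKT cells. Cxcr3 has its highest mean in Treg cells, where vehicle replicate 2 reaches 235 CPM, but in vehicle replicate 1 CD8 cells lie above Treg cells.

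Reading each pair together, the sources and receivers of the 4 ligand and receptor pairs differed. Cxcl9 and Cxcl10 were high in M1 macrophages and, by mean level, in fibroblasts. Fibroblasts of vehicle replicate 2 had only 90.3 and 86 CPM of the 2 ligands. Cxcl10 also averaged 260 CPM in NK cells, 222 in T cells and 199 in malignant cells, with overlapping ranges. Malignant cells held 75.5% to 86.1% of the Cxcl10 UMIs of a tumor and 38.3% to 63% of those of Cxcl9. The receptor of both ligands was high in T cells, plasmacytoid-marker cells and NK cells. As types, T and NK cells thus carried RNA of both Cxcl10 and Cxcr3, but whether the same cells held both was not examined. The top 1% of cells (6 in each type) held 49.6% of the Cxcl10 UMIs of NK cells and 31.2% of those of T cells. The part of macrophage RNA in these Cxcl10 levels was not tested. Cxcl12 was high in fibroblasts, the Epithelial cluster and malignant cells, and its receptor in most leukocyte types. Cxcl13 was found in a small share of macrophages and fibroblasts, and its receptor in B cells, of which there were 41 in all. Cxcl16 was high in dendritic cells and macrophages, and its receptor in Th, CD8 and NKT cells.

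The question of the design was whether digoxin changed these levels. None of the 9 genes was called different between digoxin and vehicle mice, in malignant cells, in all non-malignant cells or in any of the 10 deposited types and macrophage sub-clusters with at least 20 cells in each mouse. The test was limma on log2(mean CPM + 1), with Benjamini-Hochberg adjustment over all genes of a population. With a pseudocount of 1, differences on this scale understate the change of low genes. Calls over all genes were few as well: 0.0% in malignant cells (0 of 8 members tested), 0.0% in all non-malignant cells (0 of 9) and 0.467% in the Epithelial cluster (0 of 5). The share was 0.0765% in NK cells (0 of 6), 0.0128% in osteoclasts (0 of 3), and 0.0% in fibroblasts, macrophages, Microglia, T cells, M1, M2 and Highly proliferative M2. In the 74 tests of members, edgeR and DESeq2 on recovered UMIs also called 0.

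At an unadjusted p under 0.05 there were 10 of 74 member tests (13.5%), beside 4.51% over all genes and populations. Both digoxin mice lay on the same side of both vehicle mice in 14 of 74 (18.9%), beside 32.3% over all genes. The 10 were spread over 6 populations, 4 of them in NK cells, and went in both directions. The 74 tests are not separate, because macrophages also count within all non-malignant cells and again as sub-clusters. Median differences of the members were -0.07 in malignant cells, beside -0.01 for all genes, and -0.07 in all non-malignant cells, beside -0.02.

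The largest differences were those of Cxcl13 and Cxcl9. Cxcl13 in Highly proliferative M2 cells was 22, 0.662, 82.3 and 268 CPM, with both digoxin mice above both vehicle mice and a difference of 4.60 ± 1.05 (SE) on the log2 scale (limma, adjusted p = 1). It was 6.49 without vehicle replicate 1 and 2.70 without vehicle replicate 2, and passed the threshold in both fits. The top 4 cells there held 92.2% of the Cxcl13 UMIs of vehicle replicate 1, 75.1% of those of digoxin replicate 1 and 47.3% of those of digoxin replicate 2. In all macrophages the difference was 2.03 ± 0.85 (SE), with overlapping groups (limma, adjusted p = 1).

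Cxcl9 in T cells was 14.3, 19.8, 51.6 and 207 CPM, with the digoxin mice above the vehicle mice and a difference of 2.55 ± 0.51 (SE) (limma, adjusted p = 0.653). A single Th cell held 88.2% of the UMIs of digoxin replicate 1, and a single unclassified T cell 49.2% of those of digoxin replicate 2. The first of these cells carried 142 Lyz2, 28 C1qa and 32 C1qb UMIs, and the second carried no Cd3e or Cd3g UMI. The Unknown sub-cluster with dendritic markers held 4, 41, 6 and 298 of the 57, 41, 195 and 378 Cxcl9 UMIs of T cells, and its part in the difference was not tested. In fibroblasts the Cxcl9 difference was 1.55 ± 0.97 (SE) and in macrophages 0.64 ± 0.62 (SE) (limma, adjusted p = 0.999 and 1).

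Above 1 on the log2 scale, apart from those of Cxcl9 and Cxcl13, were Cxcl12 in the Epithelial cluster, at 1.40 ± 0.64 (SE) (limma, adjusted p = 0.86), and Cxcl10 in the plasmacytoid-marker cells, 72.9, 6.07, 16.7 and 185 CPM, at 1.33 ± 0.97 (SE) (limma, adjusted p = 0.98), both with overlapping groups. A single cell held 90.9% of the Cxcl10 UMIs of digoxin replicate 2 in the latter. Macrophage markers in these cells were 1147, 478, 978 and 1503 CPM and neutrophil markers 192, 0, 21.5 and 137 CPM. Both were lowest in vehicle replicate 2, as was Cxcl10, and their part was not tested. The mast cell and macrophage markers of the Epithelial cluster were also higher in both digoxin mice, and their part was not tested. Without vehicle replicate 1 the Cxcl12 and Cxcl10 differences were 2.64 and 3.02, and without digoxin replicate 1 the Cxcl10 difference was 3.02, each of them past the threshold.

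Other differences with an unadjusted p under 0.05 were below 1. Cxcl10 in Highly proliferative M2 cells was 207, 249, 143 and 184 CPM, a difference of -0.48 ± 0.15 (SE) (limma, adjusted p = 1). Cxcl16 in M1 differed by -0.50 ± 0.17 (SE) (limma, adjusted p = 0.562). In both, the digoxin mice lay below the vehicle mice. Malignant Cxcr4 differed by -0.34 ± 0.12 (SE) (limma, adjusted p = 1), where the digoxin mice were again the lower pair. At 2.86 to 4.29 CPM this is a low level, carried by 864 and 649 UMIs with digoxin and 1138 and 1327 with vehicle. Summed macrophage markers in malignant cells were 500.0, 536, 387 and 409 CPM, also lower in both digoxin mice, and their part in this difference was not tested. Cxcr4 in the plasmacytoid-marker cells was 59.2, 108, 122 and 131 CPM, higher in both digoxin mice by 0.65 ± 0.29 (SE) (limma, adjusted p = 0.98).

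NK cells held 4 of the 10. Cxcr3 was 59.6, 62.7, 41.9 and 39.7 CPM and differed by -0.57 ± 0.18 (SE) (limma, adjusted p = 0.667), the digoxin mice being lower. Cxcr4 was 58.7, 43.4, 69.5 and 78.6 CPM and differed by 0.54 ± 0.19 (SE) (limma, adjusted p = 0.745), the digoxin mice being higher. Cxcl16, at 4.59, 6.42, 10.8 and 12.1 CPM and 10 to 49 UMIs per mouse, differed by 0.95 ± 0.42 (SE) (limma, adjusted p = 0.768). Cxcl10 was 393, 226, 234 and 187 CPM with overlapping groups, and differed by -0.51 ± 0.20 (SE) (limma, adjusted p = 0.754). Summed macrophage markers in NK cells were 491, 529.5, 583 and 908 CPM, higher in both digoxin mice, and their part in these differences was not tested.

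Malignant Cxcl12 differed by -0.07 ± 0.10 (SE) and malignant Cxcl10 by -0.09 ± 0.25 (SE). T cell Cxcr4 differed by 0.10 ± 0.18 (SE), T cell Cxcr6 by -0.26 ± 0.36 (SE) and T cell Cxcr3 by -0.45 ± 0.22 (SE), of which only Cxcr3 had groups that did not overlap. Macrophage Cxcl16 differed by -0.19 ± 0.14 (SE). With 2 mice per group these intervals are wide, and a missed threshold does not show equal levels.

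**Figure D5:**
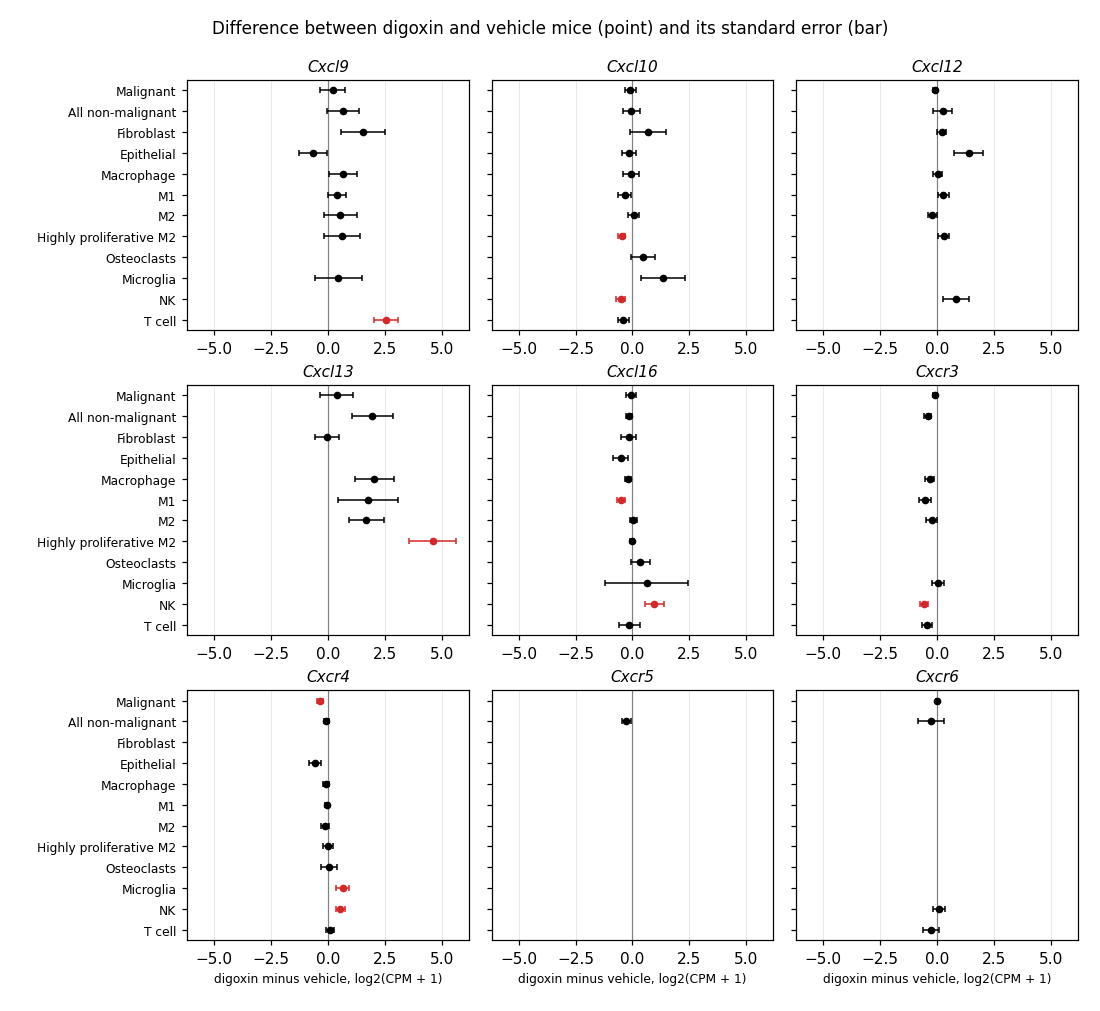
Difference between digoxin and vehicle mice in log2(mean CPM + 1) with its standard error from limma (bar), for each member in each of the 12 populations tested; red marks an unadjusted p under 0.05, and a row without a point was below the filter on low counts. The widest differences are those of Cxcl13 and Cxcl9, and none of the 74 passed the adjusted threshold of 0.05.

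The count of called members depended on the mice. Among types and sub-clusters it was 16 without vehicle replicate 1, 7 without vehicle replicate 2, 4 without digoxin replicate 1 and 0 without digoxin replicate 2. In all non-malignant cells it was 1 (Cxcl9) without vehicle replicate 1. Over all genes of the types and sub-clusters, the same fits called 1.79%, 0.361%, 0.177% and 0.0695%, beside 25.8%, 10.8%, 6.78% and 0% of the member tests, in the same order of the mice. Such fits leave a lone mouse in an arm, which is then assumed to vary like the other group. Cxcl9 shows the dependence. In macrophages its difference was 1.73 without vehicle replicate 1 and -0.45 without vehicle replicate 2. In the same fits it was 2.18 and -0.94 in Highly proliferative M2 cells (limma, adjusted p = 7.5e-08 and 0.0155) and 0.70 and -2.02 in the Epithelial cluster (limma, adjusted p = 0.0288 and 2.5e-14), so that it was called in opposite directions.

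Several other differences moved by more than 1.5 times with a mouse left out. T cell Cxcl9 was 1.56 without digoxin replicate 2, where it missed the threshold. It passed in the other 3 fits, at 2.33 without vehicle replicate 1, 2.78 without vehicle replicate 2 and 3.54 without digoxin replicate 1. Cxcl10 in NK cells was -0.12 without vehicle replicate 1 and -0.91 without vehicle replicate 2, where it passed (limma, adjusted p = 0.00543). Cxcl10 in Highly proliferative M2 cells was -0.30 without digoxin replicate 1 and -0.61 without vehicle replicate 1, where it passed. Cxcl16 in M1 was -0.76 without vehicle replicate 1, where it passed, and -0.23 without vehicle replicate 2. T cell Cxcr3 was -0.76 and -0.14 in the same fits, and passed in the first. Cxcr4 in the plasmacytoid-marker cells was 0.22 without vehicle replicate 1 and 1.08 without vehicle replicate 2, and in NK cells 0.75 and 0.33, with no call in any of these fits.

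The related genes of the pathway were read in the same fits. Of the other CXC chemokines, a mixed list, 8 of 10 were in either table (7 in the non-malignant) and gave 68 tests. Of these, 5 were called and all were higher with digoxin, 41 (60.3%) had an unadjusted p under 0.05, beside 4.51% over all genes, and 48 (70.6%) had groups that did not overlap, beside 32.3%. The 68 tests are not separate, because the populations share cells and all rest on the same mice. The list was also chosen with earlier results of these data known. In NK cells the called genes were Cxcl2, at 99.9, 54.1, 347 and 322 CPM with a difference of 2.17 ± 0.21 (SE) (limma, adjusted p = 0.000544), and Cxcl3, with a difference of 4.26 ± 0.59 (SE) (limma, adjusted p = 0.00765). In the Epithelial cluster they were Cxcl1, Cxcl3 and Pf4, with differences of 0.80 ± 0.14 (SE), 3.80 ± 0.67 (SE) and 2.04 ± 0.33 (SE) (limma, adjusted p = 0.0466, 0.0423 and 0.0287). Cxcl3 and Pf4 were named after their values were seen. edgeR and DESeq2 also called both genes in NK cells. Without the cells marked as doublets, however, the Cxcl2 difference there was 1.61 (limma, adjusted p = 0.184) and Cxcl3 was below the filter, and without digoxin replicate 2 Cxcl3 had an adjusted p of 0.915 in limma. For Cxcl3 in NK cells it was 0.122 with a pseudocount of 0.1 and 0.0609 without the filter. In the Epithelial cluster, edgeR called none of the 3 (adjusted p = 0.971 for Cxcl1, 0.451 for Cxcl3 and 0.216 for Pf4), and DESeq2 called only Pf4. Mast cell markers in this cluster were far higher in both digoxin mice, as given above, and macrophage markers were 338, 688, 864 and 1051 CPM. The part of either in these differences was not tested. In limma all 3 also missed the threshold with a pseudocount of 0.1, without the filter, as CPM of summed UMIs, without cells over 20% mitochondrial UMIs, and without either digoxin mouse, with adjusted p from 0.0525 to 0.947. The differences in these fits were 0.68 to 0.87 for Cxcl1, 3.14 to 5.65 for Cxcl3 and 2.04 to 2.26 for Pf4. Without the cells marked as doublets Cxcl1 and Pf4 missed it as well, at 0.0587 and 0.0703, with differences of 0.83 and 1.99. Over all genes in those cells limma called 48, edgeR 0 and DESeq2 15. Cxcl2 and Cxcl1 were highest in the list by mean level, together with Cxcl14, which had 1435, 4521, 1629 and 2963 CPM in fibroblasts. Cxcl2 reached 4472, 3438, 5552 and 5873 CPM in macrophages, and the macrophage markers in NK cells were higher in both digoxin mice, as given above, a part that was not tested.

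The lists nearer to the members held no called gene. Other and atypical receptors gave 17 tests, 5 (29.4%) with an unadjusted p under 0.05, beside 4.51% over all genes, and 8 (47.1%) with groups that did not overlap, beside 32.3%. Ackr3, the scavenger receptor of Cxcl12, had 269, 229, 219 and 185 CPM in fibroblasts, where Cxcl12 was also highest, and 27.4, 31.7, 30.4 and 25.8 CPM in malignant cells. Cxcr2, a receptor of neutrophil-attracting CXC chemokines, had 402, 446, 285 and 234 CPM in neutrophils.

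The interferon-gamma axis gave 77 tests. Of these, 2 (2.60%) had an unadjusted p under 0.05, beside 4.51% over all genes, and 13 (16.9%) had groups that did not overlap, beside 32.3%. Ifngr1 and Jak1 were among the genes with the highest levels, and Ifng and Irf1 were named after their values were seen. Ifng was found in T cells at 56.3, 46.1, 55.8 and 67.4 CPM and NK cells at 55.1, 48.8, 65.7 and 26.6 CPM, and at no more than 0.329 CPM in macrophages. Irf1, an interferon-induced transcription factor, had 98.5, 40.6, 91.5 and 91 CPM in macrophages. Vehicle replicate 2 was lowest, as for Cxcl9 in the same cells. Ifngr1, a chain of the interferon-gamma receptor, and the kinase Jak1 did not show this, at 252, 325, 313 and 262 CPM and 168, 173, 169 and 161 CPM.

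The proteases that act on members gave 33 tests. Of these, 2 (6.06%) had an unadjusted p under 0.05, beside 4.51% over all genes, and 12 (36.4%) had groups that did not overlap, beside 32.3%. Adam10, which sheds Cxcl16, had 113, 91.6, 119 and 98.5 CPM in macrophages, and Adam17 115, 102, 117 and 115 CPM. Dpp4, which trims Cxcl10 and Cxcl12, was highest in dendritic cells at 90.8, 119, 135 and 163 CPM. Receptor signalling genes gave 104 tests, 11 (10.6%) with an unadjusted p under 0.05, beside 4.51% over all genes. Their groups did not overlap in 36 (34.6%), near the 32.3% over all genes. The G protein subunit Gnai2 had 671, 833, 714 and 662 CPM in T cells. The regulators of G protein signalling Rgs1 and Rgs2 had 556, 486, 469.9 and 376 and 256, 219, 234 and 177 CPM there.

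Genes with the most similar pattern were ranked by Pearson's r of log2(mean CPM + 1) over the 11 types, among 9500 genes with at least 20 CPM in some type. The types share libraries, and r is a description only. Cxcl9 was nearest to Il6 (r = 0.93), which encodes the cytokine interleukin-6, and then to Phf11d and Tmbim1. Cxcl10 was nearest to Arl5b (r = 0.90), Extl3 and Slc37a3. Cxcl12 was nearest to Phldb2 (r = 0.98), Col6a3 and Cdc42ep5, and Cxcl13 to Apoc1 (r = 0.92), Col14a1 and Bhlhe41. Cxcl16 was nearest to Myoz1 (r = 0.90), Flrt3 and Stxbp6. Among the receptors, Grap2 and Ap1s3 were among the 3 nearest to Cxcr3, and Cxcr4 was nearest to Itsn2 (r = 0.95), Ppp2r5a and Orai1. Cxcr5 was nearest to Cacna1s (r = 0.87), and 4930597A21Rik was also among its 3 nearest. Cxcr6 was nearest to Ubash3a (r = 0.99), the granzyme gene Gzmk and the gamma-delta T cell receptor gene Tcrg-C4.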

How the data were processed

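The authors deposited 2 tables, of malignant and of non-malignant cells, with natural log values (of 1 plus a gene's UMIs scaled to 10000 per cell), and deposited total UMI counts per cell and cell type names beside them. Cell Ranger 3.0.2, Seurat 3.0.2 and the build mm10 are named per the submitters' processing notes. Cell filters and annotation are not given in the sources used here; every deposited cell had at least 1801 genes. Whole UMIs were recovered for 100% of values, within 0.01 of a whole number.

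The 9 genes and the related lists were chosen with earlier results of these data known. Per-cell CPM was averaged per mouse and population. limma 3.58.1 (R 4.3.3, trend on) was fitted to log2(CPM + 1) over all genes kept by the low-count filter of edgeR, in populations with at least 20 cells in every mouse, at an adjusted p threshold of 0.05. It was also run on simulated macrophage sums with large known changes. That setting does not cover the small clusters or the wide spread between mice seen here. Alternatives were edgeR 4.0.16 and DESeq2 1.42.0 on summed UMIs, pseudocounts of 0.1 and 10, no filter, CPM of summed UMIs, each mouse left out, a replicate block, and leaving out doublets, cells with over 20% mitochondrial UMIs or cells deposited as Unknown. Scrublet (scanpy 1.11.5, Python 3.11.15; expected share 0.06, run per mouse) marked 1377 of 31611 cells (4.36%), which were kept otherwise. Shares of cells with a UMI were also computed after thinning to 3000 UMIs; intervals are 95% exact binomial (Clopper-Pearson), and these and the 3 counts that a count of 0 allows cover counting error only. Up to 3 genes per related list, those with the highest mean level, were named by rule, as were the 3 genes most similar to each member; a few of these are not reported here. Labels do not say what a replicate number shares, so the p-values measure the spread between these mice. Names of the cells of vehicle replicate 2 carry the number 3; the deposited cell table assigns them to replicate 2.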

Additional observations from a re-analysis of the deposited data

Results flagged for a closer look

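The Cxcl16 levels of the digoxin and vehicle mice were ordered differently in different populations. These populations were picked because their groups did not overlap, as in 32.3% of tests over all genes. In NK cells both digoxin mice lay above both vehicle mice (4.59, 6.42, 10.8 and 12.1 CPM). In the cluster deposited as Epithelial (14.6, 18.5, 11.9 and 10.5 CPM) and in M1 macrophages (262, 378, 228 and 217 CPM) the digoxin mice were instead the lower pair. The log2 difference between digoxin and vehicle was 1.47 higher in NK than in the Epithelial cluster and 1.45 higher in NK cells than in M1. The difference between populations was not tested. Mast cell markers in the Epithelial cluster were 59.4, 151, 2391 and 2395 CPM, far higher in both digoxin mice, and macrophage markers in NK cells were 491, 529.5, 583 and 908 CPM, higher in both digoxin mice. The part of either was not tested. None of the 3 changes passed the adjusted threshold in limma. The NK level rests on 10 to 49 UMIs per mouse and that of the Epithelial cluster on 101 UMIs in all.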

How the results depend on the processing

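In malignant cells 0 members were called under every alternative, and in all non-malignant cells the count ranged from 0 to 1 with a mouse left out. Among types and sub-clusters it ranged from 0 to 16 with a mouse left out, against 0 with all mice, while 0.0695% to 1.79% of all genes were called in those fits and 0.0553% with all mice. With the other alternatives except the blocks it was 0. The replicate block called 1 (Cxcl9 in T cells, 2.55, SE 0.27). The labels tie no replicate number to a shared batch, and deviations of same-numbered mice correlated at -0.36 in malignant cells, -0.15 in the cells deposited as Microglia and -0.08 to 0.06 elsewhere. A crossed replicate block, added after seeing the data, called 3. These were Cxcl12 in the Epithelial cluster, and Cxcl13 in macrophages and in M2, all higher with digoxin. Of 20 differences followed through 8 further settings, 157 of 160 values kept direction and side of the threshold. The exception was Cxcl12 in fibroblasts (0.20), at -0.045 with edgeR, -0.040 with DESeq2 and -0.10 as CPM of summed UMIs. With a mouse left out, 58 of 80 values kept both, 14 passed the threshold and 8 changed sign. Among the 20, ranges that crossed 0 were Cxcl9 in fibroblasts (-0.35 to 3.45), macrophages (-0.45 to 1.73) and M1 (-0.30 to 1.10), Cxcl10 in M1 (-0.73 to 0.062), malignant Cxcl12 (-0.19 to 0.042), and in T cells Cxcr4 (-0.10 to 0.29) and Cxcr6 (-0.81 to 0.28, and 0.19 without digoxin replicate 2). Beyond the 20, Cxcl9 passed in opposite directions without vehicle replicate 1 and without vehicle replicate 2, at 2.18 and -0.94 in Highly proliferative M2 cells and 0.70 and -2.02 in the Epithelial cluster. The cause was not tested. Depth limits the shares: at 3000 UMIs Cxcl12 was found in 24.8% of malignant cells, below its share at full depth.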
